A study of Homo sapiens with 6 samples.

Results

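The zinc finger genes of chromosome 19 described here are the 250 protein-coding genes of the RefSeq annotation of GRCh38 that lie on this chromosome and carry a symbol starting with ZNF and a number. They are part of 1451 protein-coding genes on chromosome 19 and of 20037 on the autosomes and sex chromosomes together. The rule for members uses symbol and position and no measured value. Among them, 4 are joint or divergent transcription units with a hyphen in the symbol, such as ZNF559-ZNF177. All overlap another member, and all but ZNF470-DT share an end with one.

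Open chromatin was mapped in H1 cells, an established human embryonic stem cell line, by ATAC-seq, which sequences DNA at places that the Tn5 transposase can reach. All cells carried a virally delivered short hairpin RNA and had been selected with puromycin. There were 2 libraries each of the hairpins shHNRNPU #1 and shHNRNPU #2, which target the nuclear RNA-binding protein HNRNPU, and 2 of the control hairpin shLUC, which targets luciferase, an enzyme that human cells lack. The labels call the libraries of a hairpin repeats and do not say whether these were separate cultures, so p-values measure only the spread between these libraries, which may be technical. The comparison of shHNRNPU with shLUC asks what HNRNPU does to open chromatin in these cells, and the files do not measure how far HNRNPU was depleted.

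Most zinc finger genes of chromosome 19 belong to the KRAB zinc finger family, whose genes arose by repeated local duplication and stand in tandem clusters. Their proteins bind DNA through arrays of zinc fingers, and the KRAB domain recruits the co-repressor TRIM28 (KAP1), which brings in the histone methyltransferase SETDB1 and HP1 proteins to silence chromatin. Many of them silence transposable elements, a role studied mostly in embryonic stem cells. ZNF274 and TRIM28 with SETDB1 also bind at zinc finger genes themselves.

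Each deposited list holds summits, the positions of strongest signal in the peaks of a library, each scored by its q-value (the score is −log10 of q). A gene was called open in a library if a summit lay within 2000 bp of either end, and its best percentile is the rank of its strongest such summit by score within that library's list, from 0 to 100. Lists held 52168 to 63519 summits, read depth is unknown, and a gene without a summit is a gene with no call. On chromosome 19 there were 2227 to 2552 summits per shHNRNPU library against 2113 and 2196 in the shLUC libraries, a difference between the groups whose part in the comparisons below was not tested. HNRNPU itself was open in all 6 libraries, at percentiles of 92.0 to 96.2. Of 10 marker genes of pluripotent cells, 9 including NANOG, POU5F1 and SOX2 were open everywhere and LIN28B was open in none. Of 19 markers of other lineages, 14 were also open in all 6, while PTPRC (blood) and ALB (liver) were open in none, so that openness near a gene end distinguishes cell types poorly in these data.

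Zinc finger genes were open more often than their neighbours on the chromosome. In shHNRNPU #1, 217 of the 250 members were open in repeat 1 and 219 in repeat 2, and in shHNRNPU #2 there were 217 and 213. In shLUC, 212 and 214 were open. The share of open members was 86.1% ± 1.09 (SD, n = 6 libraries), against 71.2% ± 1.63 for the 1201 other protein-coding genes of chromosome 19 and 74.2% ± 0.744 for the 18586 genes of the other chromosomes. The share was higher for zinc finger genes than for the other genes of chromosome 19 in 6 of 6 libraries, by 13.9 to 16.2 percentage points and by 14.96 on average (two-sided exact permutation of the signs within libraries, 64 patterns, p = 0.03125, the smallest possible). This test covers the spread between libraries and not that between genes.

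Most members were either open everywhere or closed everywhere. In all 6 libraries, 205 members (82.0%) were open, 28 (11.2%) were open in none, and 17 (6.8%) were open in 1 to 5. Over all protein-coding genes, 68.5% were open in all 6 libraries, 20.2% in none and 11.3% in some. Among the other genes of chromosome 19 these shares were 63.9%, 22.0% and 14.2%. With a distance of 500 bp, 14 to 20 fewer members per library were open. The last members inside 2000 bp had their closest summit in any library 1904 bp (ZNF575), 1917 bp (ZNF610) and 1964 bp (ZNF536) from an end, and the next ones outside were ZNF30 at 3035 bp, ZNF556 at 4100 bp and ZNF558 at 5243 bp.

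**Figure D1:**
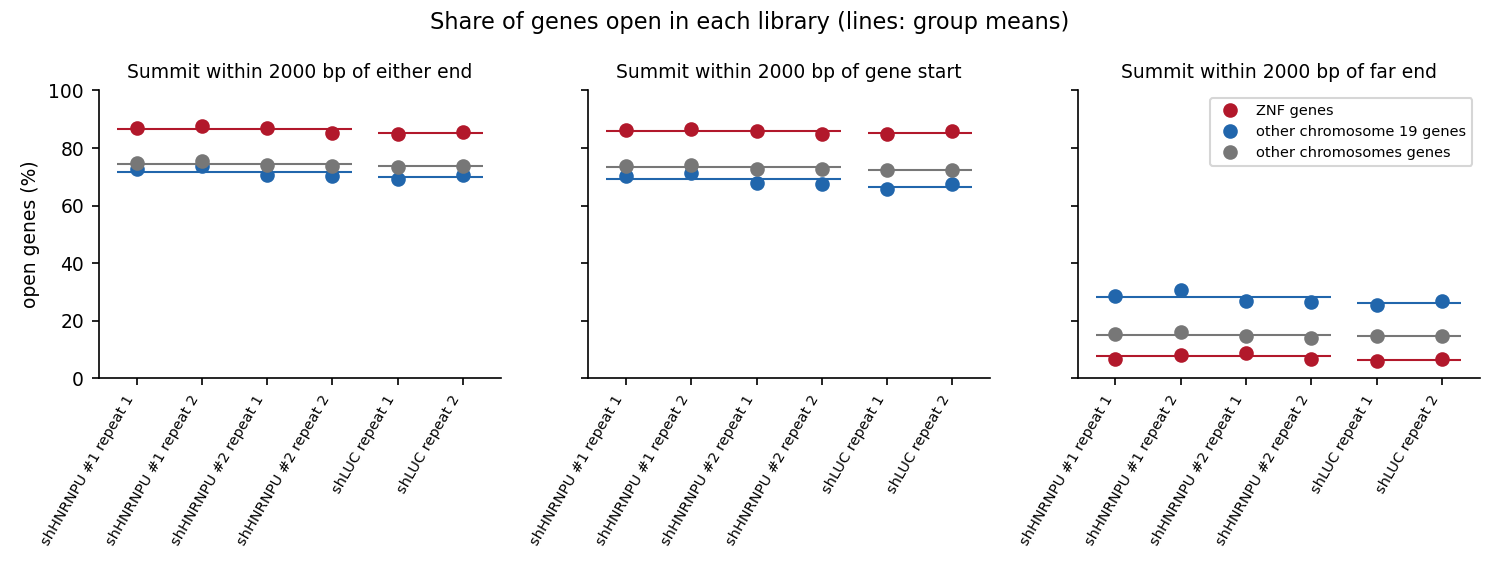
Share of open genes (%) in each library for zinc finger genes, the other genes of chromosome 19 and the genes of the other chromosomes, with a summit within 2000 bp of either end, of the gene start or of the far end (points are libraries, lines are the means of the 4 shHNRNPU and the 2 shLUC libraries). Zinc finger genes lay highest at the start, between 84.9% and 86.8%, and lowest at the far end, between 5.94% and 8.68%.

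The openness of zinc finger genes lay at their starts. The start of the gene was known for 219 members and 966 other genes of chromosome 19 from RefSeq promoter entries. A summit within 2000 bp of the start was present at 85.8% ± 0.732 (SD, n = 6) of these members and at 68.4% ± 2.13 of the other genes, a difference of 17.4 points with the same sign in 6 of 6 libraries (exact permutation of signs, p = 0.03125, the smallest possible). At the far end the order was turned around. Only 7.23% ± 1.02 of the members had a summit there, against 27.6% ± 1.85 of the other genes of the chromosome and 14.97% ± 0.790 of the genes elsewhere. The difference to the other genes of chromosome 19 was -20.3 points, with the same sign in 6 of 6 libraries (exact permutation of signs, p = 0.03125). A summit near the far end can also lie near the start of a short gene or near another gene. Median gene lengths were 23254 bp for the members, 12694 bp for the other genes of chromosome 19 and 25739 bp for genes elsewhere. The part of gene length in this difference was not tested. Start and far end were compared after their values had been seen. Of the 222 members open in at least 1 library, 172 had a strongest summit that lay near no other protein-coding gene in any library, while 50 shared it in at least 1 library and 39 in all 6. When summits near more than 1 gene were left out, 69.9% ± 1.06 of the members and 45.4% of the other genes were still open.

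At open starts, the strongest summit sat close to the start. Its median position was 42 to 66 bp upstream of the start, by library, and 85.5% to 88.3% of the strongest summits lay within 250 bp of it. For the other genes of chromosome 19 the median was 75.5 to 89.5 bp upstream and 60.1% to 61.9% lay within 250 bp, and for genes of the other chromosomes 70.7% to 71.9% did. The ranges of these shares over the libraries did not overlap between the 3 sets of genes, while those of the median positions did between the members and the genes elsewhere.

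**Figure D2:**
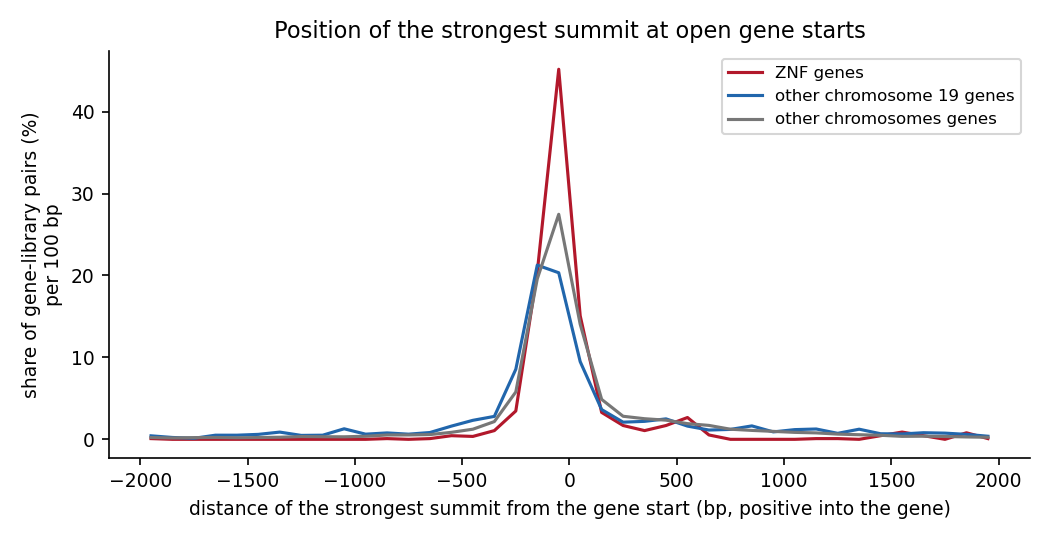
Distance in bp of the strongest summit from the gene start (negative values are upstream), as the percentage of all pairs of an open gene and a library in bins of 100 bp. The curve of the zinc finger genes is the narrowest of the 3, with its peak in the bin just upstream of the start.

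The members were unevenly spread along the chromosome. A cluster was taken as a run of at least 5 members with gaps of at most 500 kb, which gave 10 clusters with 236 members, numbered 1 to 10 from the start of the chromosome, and left 14 members outside. Clusters 10 (ZNF264 to ZNF446, chromosome 19, 57191500 to 58489533 on GRCh38) and 6 (ZNF565 to ZNF573, 36182060 to 37779586) had the highest open shares, 93.0% and 92.3%, with the same value in every library. In cluster 10, 40 of 43 members were open in all 6 libraries, and in cluster 6, 24 of 26 were. The lowest share among the large clusters was that of cluster 4 (ZNF101 to ZNF254, 19668153 to 24129968), with 72.5% ± 2.03 (SD, n = 6), where 9 of 37 members were open in none. In cluster 5 (ZNF302 to ZNF792), which has only 5 members, 3 were open in all 6 libraries and 2 in none. Cluster 8 (ZNF175 to ZNF331, 51571283 to 53580269) held 7 of the 17 members that were open in some libraries only. It also had the lowest median percentile of members open in all 6 libraries, 77.1, where the other 9 clusters ranged from 82.6 to 95.1.

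**Figure D3:**
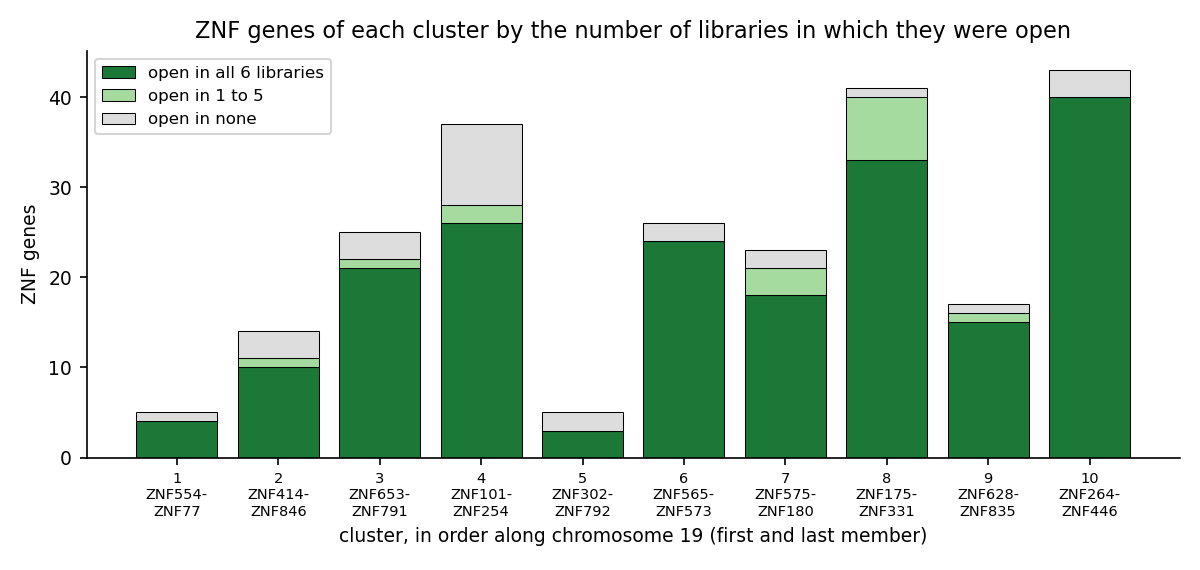
Number of zinc finger genes in each of the 10 clusters that were open in all 6 libraries, in 1 to 5 or in none, with the first and last member of each cluster below the bar. Cluster 4 holds 9 of the 28 members open in no library, and cluster 8 holds 7 of the 17 that were open in some.

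All 9 closed members of cluster 4 are neighbours. ZNF208, ZNF257, ZNF676, ZNF729, ZNF98, ZNF492, ZNF99, ZNF723 and ZNF728 follow each other from 21939815 to 23003176, a stretch of 1.06 Mb with no other protein-coding gene, and 0 summits lay in it in any of the 6 libraries. ZNF208 and ZNF676 lie at loci that have been associated with telomere length. The rest of cluster 4 held 62 to 72 summits per library, 18.2 to 21.2 per Mb, and chromosome 19 as a whole held 36.2 to 43.7 per Mb. The last summit before the stretch was at 21851937 to 21852106 and the next after it at 23075182 to 23075506, by library. This was the second longest stretch without a summit on the chromosome in every library, after the 3.71 Mb around the centromere, which begin in the last gene of cluster 4 and hold no whole protein-coding gene. The members on either side were open in all 6 libraries. ZNF43 had a mean percentile of 86.5 and ZNF100 of 82.0 on the left, and ZNF730 had 82.8 and ZNF724 94.7 on the right. Read depth and the treatment of reads that map to several places are not known from the sources used here, and their part in this stretch was not tested.

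**Figure D4:**
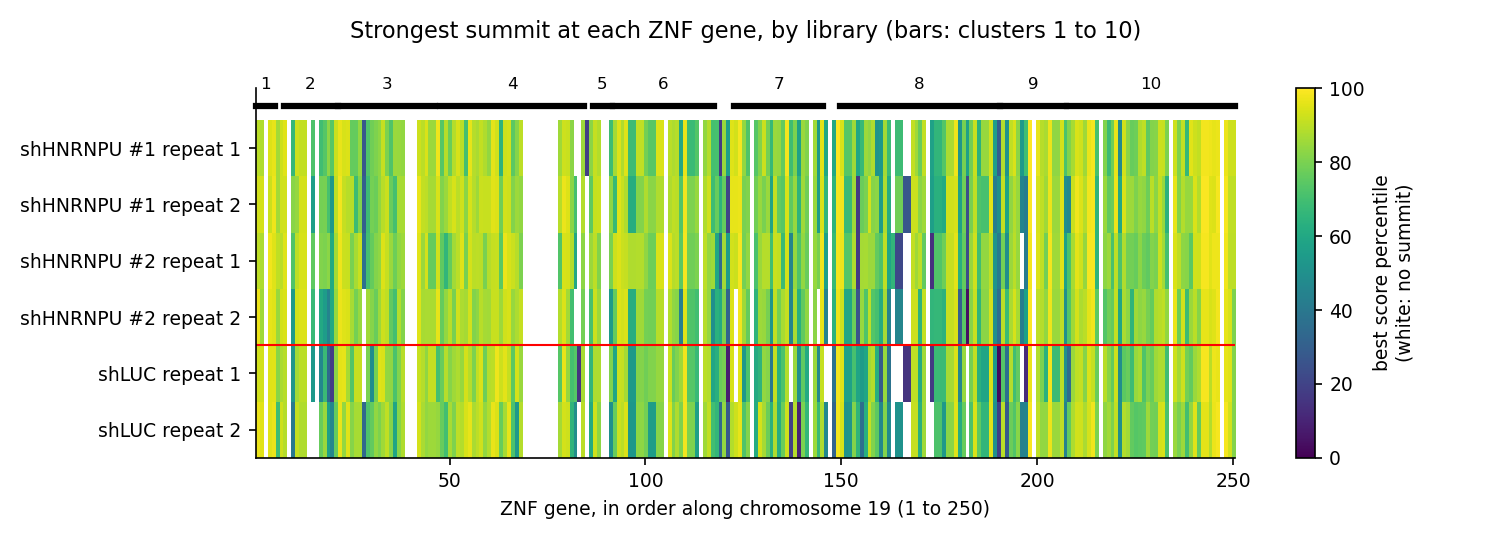
Best score percentile of each of the 250 zinc finger genes, in order along chromosome 19, in the 6 libraries (rows, with shLUC below the red line; white means no summit within 2000 bp of an end; black bars mark clusters 1 to 10). The white band in cluster 4, the same in every library, is the run of 9 closed genes from ZNF208 to ZNF728.

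The promoters of the closed genes in this stretch for which a sequence was at hand, 4 of the 9, resembled those of open genes of the same cluster. RefSeq promoters of GRCh38.p14, from 250 bases before to 50 after the start, were at hand for 219 of the 250 members, and for 29 of the 37 in cluster 4. ZNF91, which silences SVA retrotransposons, and ZNF93, which silences LINE elements, were open at the start in all 6 libraries. ZNF208 and ZNF492 were open in none. Their promoters are printed here because they set open and closed genes of similar promoter sequence side by side. They lie at chr19:23395422-23395721 on the minus strand (ZNF91), chr19:19900696-19900995 on the plus strand (ZNF93), chr19:22010894-22011193 on the minus strand (ZNF208) and chr19:22634074-22634373 on the plus strand (ZNF492). Capitals mark the letters CCGGAAG and CCAAT on either strand (CTTCCGG and ATTGG on the other).
ZNF91: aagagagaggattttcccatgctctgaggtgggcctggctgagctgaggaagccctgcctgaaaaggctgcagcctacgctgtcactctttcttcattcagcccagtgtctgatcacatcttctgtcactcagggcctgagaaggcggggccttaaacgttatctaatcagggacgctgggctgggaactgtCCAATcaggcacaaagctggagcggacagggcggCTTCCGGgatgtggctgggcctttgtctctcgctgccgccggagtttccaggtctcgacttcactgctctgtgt
ZNF93: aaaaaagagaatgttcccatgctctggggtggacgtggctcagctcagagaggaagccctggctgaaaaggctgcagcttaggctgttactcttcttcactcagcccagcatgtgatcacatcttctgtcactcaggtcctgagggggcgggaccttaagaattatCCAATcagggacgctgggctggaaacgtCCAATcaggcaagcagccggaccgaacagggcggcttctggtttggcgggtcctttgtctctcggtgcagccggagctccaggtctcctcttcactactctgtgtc
ZNF208: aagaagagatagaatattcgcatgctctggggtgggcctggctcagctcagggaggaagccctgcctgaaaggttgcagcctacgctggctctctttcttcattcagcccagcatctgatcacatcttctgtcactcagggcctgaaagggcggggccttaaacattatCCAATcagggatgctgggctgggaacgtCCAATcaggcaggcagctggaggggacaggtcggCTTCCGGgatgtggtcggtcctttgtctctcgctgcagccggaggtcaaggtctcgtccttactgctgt
ZNF492: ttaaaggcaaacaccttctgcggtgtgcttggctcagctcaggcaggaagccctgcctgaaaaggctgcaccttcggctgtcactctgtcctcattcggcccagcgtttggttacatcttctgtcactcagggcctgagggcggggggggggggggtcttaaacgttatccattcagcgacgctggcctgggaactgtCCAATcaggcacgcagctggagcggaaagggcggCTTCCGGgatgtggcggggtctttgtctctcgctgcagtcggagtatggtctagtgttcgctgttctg
The ZNF208 promoter was most like that of ZNF91 among the 23 promoters of cluster 4 open in all libraries, with 85.7% identical positions in a global alignment. The closest open promoters of ZNF257, ZNF492 and ZNF723 were those of ZNF85 (82.1%), ZNF431 (79.2%) and ZNF493 (74.9%). Between open and closed promoters of the cluster the median identity was 74.4% over 92 pairs, and between open ones it was 74.9% over 253 pairs. Against members outside the cluster, every 4th of them, it was 46.3% over 1392 pairs. These 4 closed promoters were thus about as like the open ones as these were like each other, and the other 5 were not compared. The 4 promoters shown held 10 to 16 CpG dinucleotides, 11 in ZNF91, 10 in ZNF93, 10 in ZNF208 and 16 in ZNF492.

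Over all members, promoters of open and closed starts were closer in composition than those of other genes. The median number of CpG dinucleotides was 21 in the 181 members open at the start in all 6 libraries and 18 in the 27 open there in none. These 27 include members with a summit at the far end, such as ZNF331, or in the gene body, such as ZNF420. For the 8 with no summit at either end or in the body, the median was 13.5, with a range of 2 to 49. In the other genes of chromosome 19, it was 27 in the 585 that were open and 6 in the 235 that were closed. The letters CCGGAAG, the core of many binding sites of ETS factors, were present in 100 of the 219 member promoters (45.7%), against 12.8% of the other genes of chromosome 19 and 14.2% of all 15842 protein-coding promoters of the same length. Among the members, 46.4% of the open and 44.4% of the closed starts held them, against 17.6% and 3.40% in the other genes of the chromosome. Of the 8 members with no summit at an end or in the body, 5 (62.5%) held them. The median position of CCGGAAG in member promoters was 18 bases before the start, and 77.7% of the 112 matches lay within 50 bases of it. CCAAT was present in 53.4% of member promoters and 36.4% of all, GGGCGG in 67.6% and 58.5%, and TATAAA in 1.83% and 9.63%. A match of CCGGAAG overlapped another of these motifs in 1 member promoter. Both strands were searched, and the motifs were chosen after their shares had been seen. A match describes letters and not a bound site.

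The other closed members mostly lay singly, apart from a run of 3 (ZNF563 to ZNF799) and a run of 2 (ZNF599 and ZNF30). Of the 28 members open at neither end in any library, 13 had no summit in the gene body either, namely the 9 above with ZNF177, ZNF560, ZNF404 and ZNF541, a gene of meiosis in the testis. In 14 others, a summit inside the gene was called in all 6 libraries, and in ZNF556 in 3. For the 12 of these 14 with a known start, the strongest inner summit lay 5243 to 70382 bp from the outermost start, at percentiles from 59.7 (ZNF814) to 99.2 (ZNF444). In ZNF420, which encodes a regulator of p53 called Apak, it lay 70285 to 70382 bp into the gene at percentiles of 95.6 to 98.9. In ZNF444 it lay 8380 to 8551 bp into the gene at 93.5 to 99.2, and in ZNF599 34333 to 34426 bp at 75.2 to 85.1. In 3 of the 12 it lay within 2000 bp of an end of another protein-coding gene in all 6 libraries. These were ZNF324B, where it is also the strongest summit of ZNF132, a member that lies within ZNF324B on the other strand, ZNF540 (near ZNF571) and ZNF558 (near MBD3L1). ZNF563, ZNF442 and ZNF799, a run of 3 closed members in cluster 3, had theirs at 13540 to 13648, 7902 to 8034 and 13782 to 14125 bp. With gene bodies counted, 93.3% ± 0.776 (SD, n = 6) of the members had a summit. The same search gave 77.4% ± 1.16 for the other genes of chromosome 19 and 82.1% ± 0.567 for genes elsewhere. Longer genes offer more room for a summit, and median lengths were 23254, 12694 and 25739 bp in that order.

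The strength of the summits varied widely among open members, as it did among the other open genes of chromosome 19. Over the 205 members open in all 6 libraries, the mean best percentile ran from 29.3 to 99.2, with quartiles of 75.2 and 91.0 and a median of 84.9. Over the 767 other genes of chromosome 19 open in all 6 libraries, it ran from 24.6 to 99.5. Their quartiles were 71.0 and 94.2 and their median was 86.5, a wider spread than in the members. By library, the median percentile of the members differed from that of these genes by -2.09 points on average. It was higher in the members in 1 of 6 libraries (exact permutation of signs within libraries, p = 0.0625). Among the members, the mean best percentile was highest at ZNF787, with 99.95, 99.9, 98.8 and 99.7 in the shHNRNPU libraries and 97.1 and 99.6 with shLUC. ZNF473, which encodes a protein needed to process the ends of histone mRNAs, followed with 96.9 to 99.4. Its strongest summit also lay near another protein-coding gene in all 6 libraries, and its start had no promoter entry. ZNF544 and ZNF8 shared a strongest summit at 96.0 to 99.4, and ZNF584 had 96.9 to 98.6. The lowest were ZNF331, an imprinted gene, ZNF574, ZNF350, ZNF580 and ZNF780B, with means of 29.3, 33.3, 40.4, 44.5 and 48.2. At ZNF331 the summit lay near the far end in all 6 libraries, and none lay within 2000 bp of the start. The values of these lowest members spread far more between libraries than those of the strong members. ZNF780B, for example, had 17.0, 64.5, 34.9 and 61.3 with shHNRNPU and 77.6 and 33.9 with shLUC.

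With shHNRNPU, the share of open members was 86.6% ± 1.01 (SD, n = 4), and with shLUC it was 85.2% ± 0.566 (SD, n = 2). The difference of 1.4 percentage points was not beyond the spread between libraries (exact two-sided permutation, 15 assignments, p = 0.267, where 0.133 is the lowest the design allows), and with a gene-end distance of 500 bp it was -0.100. It was larger with stricter lists, at 2.70 points with lists of one size (exact permutation p = 0.267), 3.20 with a score of at least 5 and 5.40 with scores above the median (exact permutation p = 0.133 for both, the lowest the design allows). The groups overlapped, since shHNRNPU #2 repeat 2 was at 85.2% and shLUC repeat 2 at 85.6%. By hairpin, the difference from shLUC was 2.00 points with shHNRNPU #1 and 0.800 with shHNRNPU #2 (exact permutation tests over 6 assignments, p = 0.333 and 0.667, where 0.333 is the smallest possible). Both use the same control libraries. The latter was 0 without shHNRNPU #2 repeat 1, and 1.60 without repeat 2. The other genes of chromosome 19 differed by 1.85 points (p = 0.267) and genes elsewhere by 0.847 (p = 0.267, exact permutation tests over 15 assignments). The excess of zinc finger genes over the other genes of the chromosome was 14.8 ± 1.02 points with shHNRNPU and 15.3 ± 0.259 with shLUC, a difference of -0.453 (exact permutation test, p = 0.533). This was -1.15 at a distance of 1000 bp, -2.89 at 500 bp (exact permutation p = 0.133) and 1.13 with scores above the median. With lists of one size it was -0.526 and with a score of at least 5 it was -0.484. With these lists, the open share of the other genes of chromosome 19 thus differed more between the groups than that of the members. In cluster 8 alone the open share was 90.2% to 95.1% in the shHNRNPU libraries and 87.8% and 85.4% in the shLUC libraries, without overlap, and in cluster 4 it was 71.6% against 74.3% on average, with overlap. These clusters had the largest rise and the largest fall among the 10, and neither was tested.

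Strength by rank differed between the groups in the same direction as in neighbouring genes. The median best percentile over the 205 members open everywhere was 85.7, 85.8, 86.0 and 85.5 in the shHNRNPU libraries and 83.9 and 83.8 in the shLUC libraries. All 4 lay above both, with a mean difference of 1.93 points (exact permutation over 15 assignments of the libraries, p = 0.133, the lowest value the design allows). The other 767 such genes of chromosome 19 had 88.2 to 89.0 with shHNRNPU and 83.6 and 85.5 with shLUC, a larger difference of 3.97 points (exact permutation, p = 0.133). The 2 differences themselves differed by -2.04 points (exact permutation, p = 0.133), and the genes of the other chromosomes had 1.43 points (p = 0.4). The groups did not overlap in the percentile of 51 members that were higher with shHNRNPU (24.9%), where 14.9% of all genes open in all 6 libraries and 29.3% of the other such genes of chromosome 19 had this pattern. They did not overlap either in 8 members that were lower (3.9%), where 7.08% of all genes and 1.69% of the others on the chromosome did. The members thus lay between the whole genome and the rest of their chromosome in both directions.

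Gene by gene, no member passed the fit across all 13721 genes open in all 6 libraries (limma, Benjamini-Hochberg adjusted p under 0.05), which called 2 genes higher with shHNRNPU (0.0146%) and 0 lower, and 0.13% of the other genes of chromosome 19 higher. At an unadjusted p under 0.05, it had 35 members higher (17.1%) and 4 lower (1.95%), beside 10.3% and 3.13% of all genes and 22.8% and 0.782% of the others on the chromosome. The median fitted difference was 2.68 percentile points over the members, 2.81 over the other genes of chromosome 19 and 0.850 over all genes. The members closest to the threshold, named after their values were seen, were ZNF865 and ZNF333. ZNF865 had percentiles of 94.4, 88.8, 89.5 and 94.0 with shHNRNPU and 69.5 and 73.0 with shLUC (limma adjusted p = 0.0576). ZNF333 had 97.5, 93.9, 92.8 and 96.2 against 70.7 and 84.3 (limma adjusted p = 0.0588). The groups did not overlap at either gene, and both passed under 5 of the 17 alternatives.

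Presence of a summit separated the groups at 1 member, ZNF665, 0.4% of the 250, beside 0.369% of all protein-coding genes and 0.25% of the other genes of chromosome 19. ZNF665 was open in all 4 shHNRNPU libraries, at percentiles of 57.2, 23.7, 22.9 and 3.73, and in neither shLUC library, so that most of its summits were among the weaker ones of their lists. The reverse pattern was found at 0 members, at 0.165% of all genes and at 0.0833% of the others on the chromosome. The number open in all shHNRNPU and no shLUC library was 3 without shLUC repeat 1 and 5 without shLUC repeat 2, since fewer libraries had to lack the gene.

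The members with the largest differences in percentile among those whose groups did not overlap were ZNF227, ZNF615, ZNF562, ZNF114 and ZNF331 upward, and ZNF875, ZNF90, ZNF491, ZNF17 and ZNF671 downward. ZNF615 had 67.4, 77.2, 86.4 and 84.5 with shHNRNPU and 54.8 and 36.2 with shLUC, a fitted difference of 33.4 ± 8.35 (SE) points with limma adjusted p = 0.107. ZNF114 had 59.996, 65.1, 67.2 and 64.1 against 37.8 and 31.9. ZNF331 had 29.4, 49.2, 40.8 and 35.6 against 2.35 and 18.6, at a summit near its far end and not its start. At all 3 genes both shLUC values lay below every shHNRNPU value. In the other direction, ZNF90 had 70.2, 82.4, 79.4 and 86.7 with shHNRNPU and 93.7 and 94.1 with shLUC, a fitted difference of -14.2 ± 4.48 points with limma adjusted p = 0.202. ZNF671 had 75.5, 77.8, 75.5 and 79.6 against 80.4 and 85.2, and its difference in means, -5.76 points, is the smallest of the 10.

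**Figure D5:**
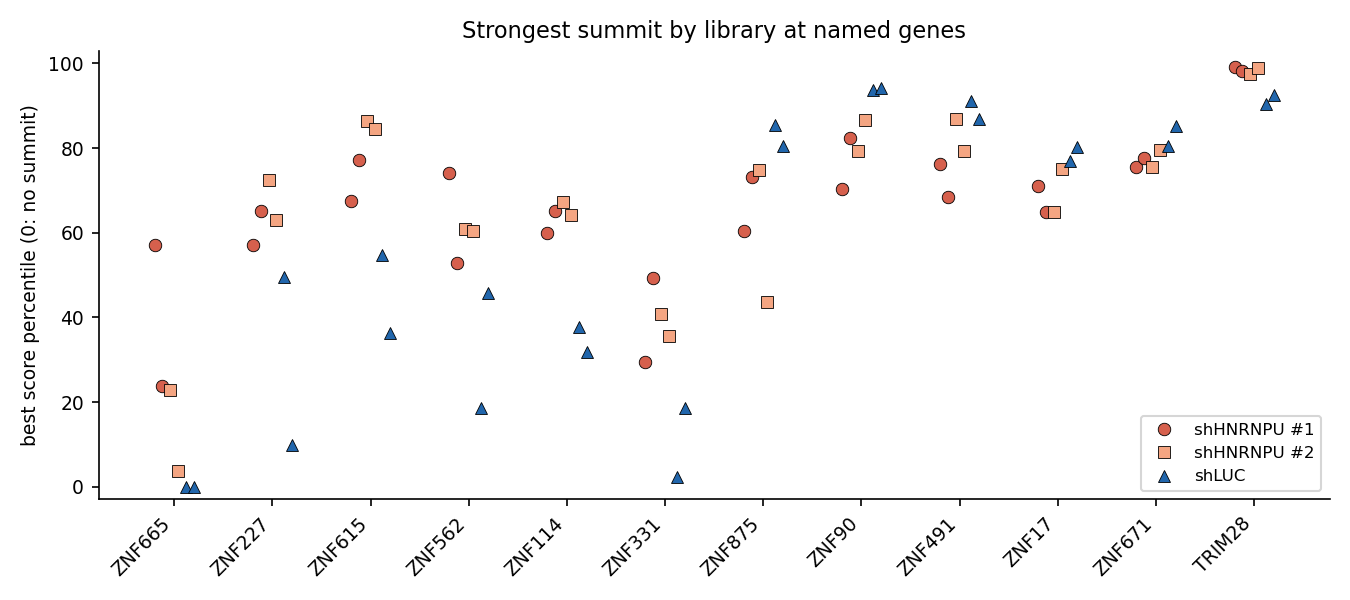
Best score percentile (0 means no summit) in each library at ZNF665, at the 5 members with the largest rise and the 5 with the largest fall among those whose groups did not overlap, and at TRIM28. The shLUC triangles lie below all shHNRNPU points from ZNF665 to ZNF331 and at TRIM28, and above them from ZNF875 to ZNF671; the first 11 genes were picked for this pattern.

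The members open in some libraries only showed where calls were unstable. ZNF575 had percentiles of 93.3, 96.3 and 92.1 in 3 shHNRNPU libraries and 92.3 in shLUC repeat 2 but no call within 2000 bp in the other 2, and its summit lay at the limit of the distance. ZNF880 and ZNF528 shared a summit that was absent in shLUC repeat 1, as was a summit at ZNF234 and ZNF296. ZNF28 and ZNF266 lacked theirs in shLUC repeat 2. ZNF681 lacked a summit in shHNRNPU #1 repeat 1 and shHNRNPU #2 repeat 2, and ZNF229 in the latter. ZNF726 in cluster 4 was open in shLUC repeat 1 alone, at a percentile of 14.9, and ZNF610 in shHNRNPU #2 repeat 1 alone, at 65.9. ZNF439 and ZNF581 were each open in 4 libraries, at 27.0 to 36.8 and at 42.3 to 54.1, and both lacked a call in shLUC repeat 1.

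Of 15 members listed for known roles, 9 were open in all 6 libraries, 2 in some and 4 in none, beside the 82.0% of all members and 68.5% of all genes that were open in all 6. The 4 were ZNF208, ZNF676, ZNF541 and ZNF420. ZNF91 had 91.6, 94.6, 93.4 and 86.2 with shHNRNPU and 84.0 and 92.3 with shLUC. ZNF93 had 93.8, 89.5, 89.5 and 93.0 against 87.7 and 90.1, so that groups overlapped at both genes. ZNF146, a protein of zinc fingers without a KRAB domain, had 94.5 to 94.9 with shHNRNPU and 91.8 in each shLUC library (limma adjusted p = 0.491). ZNF154 and ZNF582, whose promoters are often methylated in tumours, had 77.5 to 90.6 against 72.6 and 75.1, and 90.5 to 96.2 against 88.6 and 90.5. ZNF224, a repressor of the aldolase A gene, had 68.2 to 86.9 against 71.7 and 77.1, and ZNF649 had 58.8 to 73.5 against 57.4 and 52.0. None of these passed the limma test. ZNF331 and ZNF473 are described above. ZNF536, a gene of the developing nervous system, had a summit near an end in shHNRNPU #1 repeat 1 alone, at a percentile of 18.4, and ZNF534 in shHNRNPU #1 repeat 2 and shLUC repeat 1, at 26.8 and 14.9. The summit of ZNF534 was shared with ZNF578.

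Of 18 genes for the co-repressors of KRAB zinc finger proteins and the silencing factors beside them, 16 were open in all 6 libraries, CHD3 in 5 and UHRF1 in none. Over all protein-coding genes, 68.5% were open in all 6. TRIM28, the co-repressor that binds the KRAB domain, lies on chromosome 19 too and was 1 of the 2 genes called in the whole fit, beside PPP2R5C. Its percentiles were 99.1, 98.3, 97.5 and 98.8 with shHNRNPU and 90.5 and 92.5 with shLUC, without overlap. The mean was 98.4 ± 0.676 (SD, n = 4) against 91.5 ± 1.402 (SD, n = 2), a fitted difference of 6.97 ± 1.16 (SE) points with limma adjusted p = 0.0366. It was higher with shHNRNPU under all 17 alternatives, with adjusted p from 0.00486 to 0.251, and passed the threshold under 5 of them. The call was lost without any of the 4 shHNRNPU libraries in turn, without shLUC repeat 1, and with repeat number as a block (limma adjusted p = 0.0625). The call was also lost with gene bodies, a score of at least 5, scores above the median and genes open in at least 3 libraries. The same held with normal scores and without a trend of the variance (limma adjusted p = 0.248). SETDB1, the methyltransferase, had 95.3 to 98.3 against 96.6 and 95.9 (limma adjusted p = 0.960). The HP1 genes CBX1, CBX3 and CBX5 had fitted differences of 2.46, 1.16 and -1.39 points, and the DNA methyltransferase gene DNMT1, also on chromosome 19, had 5.87 ± 2.47 (limma adjusted p = 0.305). ZNF274, a member, had 90.7, 88.5, 92.8 and 81.8 against 88.1 and 76.1 (limma adjusted p = 0.518), with overlap. TASOR, a subunit of the HUSH silencing complex, had 71.7, 74.7, 65.0 and 54.3 with shHNRNPU and 77.3 and 76.5 with shLUC, without overlap (fitted difference -10.5 ± 7.60 points, limma adjusted p = 0.574). CHD3, a remodeler of the NuRD complex, had 60.3, 40.3, 20.5 and 19.5 against 2.90 and no summit, also without overlap, and was not in the fit. Of the 16 pathway genes in the fit, 1 passed, TRIM28, beside 0.0146% of all genes in the fit.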

How the data were processed

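The authors deposited, for each library, a list of peak summits of 1 bp with a score, read as −log10 of a q-value from its layout and its lowest values of 1.30 to 1.31. The submitters' processing notes name cutadapt, Bowtie2, SAMtools, MACS2, deepTools and the build hg38. Read filters and the treatment of reads with several matches are not given in the sources used here. Peaks were called per library, and scores were not normalized between libraries, so ranks within a list were used. The published article found with the series describes other libraries and guided the style only.

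Genes were those of the RefSeq table of GRCh38.p14, and starts came from its promoter table, which held 219 of the 250 members. Shares and medians were compared with exact permutation tests over libraries. Percentiles of all genes open in all 6 libraries were fitted with limma 3.58.1 (trend and robust, 1 coefficient for shHNRNPU against shLUC) in R 4.3.3, after tests on simulated data. Alternatives were a score of at least 5, scores above the list's median, lists of one size, distances of 500 and 1000 bp, gene bodies, summits near 1 gene only, each library left out, and a replicate block. For the fit there were also normal scores, no trend of the variance and genes open in at least 3 libraries, 17 in all. For the excess there were genes of the other chromosomes and the other zinc finger genes left out, and for clusters, gaps of 250 and 1000 kb.

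Named genes were members whose presence separated the groups, the 5 highest and 5 lowest by mean percentile, the 5 largest rises and falls without overlap, the first 5 of the longest closed run, and fixed lists of known roles and co-repressors. Members and lists were chosen with earlier results of these data known. Promoters were aligned with Biopython 1.88, and tables and figures made with Python 3.11.15, numpy 2.4.6, pandas 2.3.3, scipy 1.17.1 and matplotlib 3.10.9.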

Additional observations from a re-analysis of the deposited data

Results flagged for a closer look

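Of 39 measures of zinc finger genes examined for a library far from the others of the 4 shHNRNPU libraries, 2 stood apart. Both are members with a summit in 1 of the 4 libraries, and a missing summit counts as 0, so the gap is the whole range for any such member. At ZNF534, shHNRNPU #1 repeat 2 had a percentile of 26.8 and the other 3 had no summit, a gap of 1.0 of the range. At ZNF536, shHNRNPU #1 repeat 1 had 18.4 and the other 3 had no summit, again a gap of 1.0 of the range. Both calls lie below the median score of their lists.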

How the results depend on the processing

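The excess of open zinc finger genes over the other genes of chromosome 19, and the higher median percentile with shHNRNPU, kept their direction under the alternatives run. Of the values recomputed, 3 turned direction. These were, at a distance of 500 bp, the group difference in the open share (-0.100 points) and that of shHNRNPU #2 (-0.400), and, with scores above the median, the group difference in the excess (1.13). The excess without each library in turn was 14.7 to 15.2 points, where 5 libraries cannot give an exact permutation p below 0.0625. Leaving out libraries gave 1.00 to 1.87 points for the group difference in the open share, 1.60 to 2.40 and 0 to 1.60 for the hairpins, -0.915 to -0.155 for the excess and 1.78 to 1.96 for the median percentile.

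Genes open in all shHNRNPU and no shLUC libraries numbered 4 with scores above the median and 1 to 5 without single libraries, and the reverse 0 to 1 (1 without shLUC repeat 2). The limma fit called 2 members, ZNF333 and ZNF865, at 500 bp, with lists of one size, with normal scores and with summits near 1 gene only, and 0 to 3 without single libraries (3, with ZNF548, without shLUC repeat 2). The lowest open share of a cluster was 56.7% with scores above the median, 40% at 500 bp and 40% at 1000 bp. The causes were not tested.

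Same-numbered repeats did not deviate together (r = -0.0356, -0.00491 and -0.0111 across all genes, and 0.0394, -0.333 and -0.0848 across the members, which are not independent). The labels do not say whether such repeats were handled together, and these correlations of ranks within lists cannot tell. With the replicate block the group difference in the open share was 1.4 points (exact permutation p = 0.444 over 9 assignments, where 0.222 is the smallest possible) and limma called 0 members. Depth is unknown, so a weak open site cannot be told from a closed one.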
